A study of Arabidopsis thaliana with 4 samples.

Results

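Transcripts of 5 genes linked to specialised metabolism were followed in Arabidopsis thaliana inflorescences. They were BCAT4 of glucosinolate synthesis, the cytochrome P450 gene CYP71B26, the glycosyltransferase genes UGT73C1 and UGT78D1, and the sesquiterpene synthase gene AT5G44630, called TPS11. Each was chosen by its name among the genes with a probe listing that gene alone, with results of this comparison already known. They are 5 of 5303 named genes tested, within 25588 genes and unnamed or several-gene probes. Their ratios between the genotypes, and whether these were past the threshold of the fit over all genes, are therefore a description, and no p is given for them.

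Total RNA of apetala3 inflorescences was hybridised together with total RNA of wild-type inflorescences on each of 4 two-channel long-oligonucleotide arrays. APETALA3 encodes a MADS-box factor of petal and stamen identity, and in its absence sepals and carpels form at those positions. The mutant RNA was in channel 1 on arrays 1 and 3 and in channel 2 on arrays 2 and 4. The labels give neither the allele and accession of the plants, nor their age and floral stage, nor whether the arrays held separate extracts, so the spread between arrays may be technical.

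Every value is a log2 ratio of apetala3 over wild type, so a value of 1 is a 2-fold higher level in the mutant. The labels name the RNA in each channel but not the numerator of the ratio. Deposited ratios of arrays with opposite channels correlated across gene probes with a median Pearson r of -0.70, and the sign was turned by channel. The remaining choice of direction is called likely only. It rests on 4 measured genes of 17 matched on a tapetum and pollen wall list (SHT, ATA20, SWEET8 and ATA27), which then read between -2.76 and -4.10 and were all past the threshold used below. SHT was not past it without array 2, at -3.01, and ATA27 was not with limit values kept, at -2.45. With a variance estimated for each gene alone, only ATA20 of the 4 was past it. All 4 stayed below 0 under every alternative run. With the other choice, every higher value below becomes lower. AP3 itself was not analysed here. In these bulk samples, fewer cells of a type and less RNA per cell cannot be told apart, and organ composition differs between the genotypes by the known phenotype.

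Plants make specialised metabolites from primary ones in short pathways, and flowers carry several classes at once. Aliphatic glucosinolates are sulphur-rich defence compounds built from chain-elongated methionine. Flavonols are phenolic pigments that protect pollen and petals, and family 1 UDP-glycosyltransferases (UGTs) attach sugars to them and to hormones. Sesquiterpenes are volatile hydrocarbons that Arabidopsis flowers emit, and cytochrome P450 enzymes oxidise terpenes and many other substrates.

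BCAT4, CYP71B26 and UGT73C1 had mean log2 ratios between 1.05 and 1.21, slightly more than 2-fold higher in apetala3, and were above 0 on all 4 arrays. UGT78D1 was also above 0 on every array but at a mean of 0.32. AT5G44630 was below 0 on 3 arrays and above 0 on array 4. With limma over all genes and probes at an adjusted p threshold of 0.05, 3 of the 5 were past the threshold, all higher, where 8.43% of all genes and probes were called higher and 10.1% lower. Since the genes were picked with this comparison in view, nothing is read from that count.

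**Figure D1:**
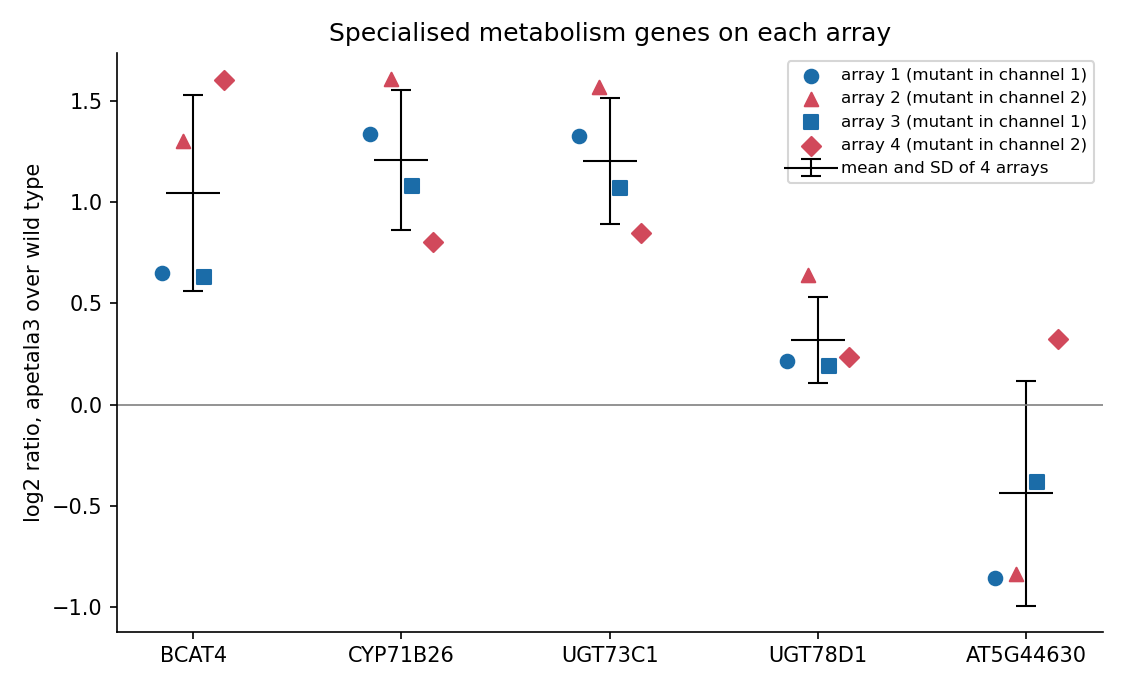
Log2 ratio of apetala3 over wild type (vertical axis) for the 5 genes, with a point for each array, shape and colour marking the array and the channel of the mutant RNA, and black marks for the mean and SD of 4 arrays. CYP71B26 and UGT73C1 show the same order of arrays, BCAT4 splits by channel, and AT5G44630 lies on both sides of 0.

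BCAT4 (AT3G19710) encodes the aminotransferase that starts methionine chain elongation for aliphatic glucosinolates. It had log2 ratios of 0.65, 1.30, 0.63 and 1.60 on arrays 1 to 4. The values of arrays 2 and 4 were both above those of arrays 1 and 3, so the channel arrangements did not overlap. The mean was 1.05 ± 0.48 (SD, n = 4 arrays), a 2.06-fold higher level. Without array 1 or array 2 the gene was no longer past the threshold, at means of 1.18 and 0.96.

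The difference between channel arrangements is a separate quantity from the mean over arrays, and it can be tested. For BCAT4 the mean was 0.64 with the mutant in channel 1 and 1.45 with it in channel 2, a difference of 0.81 ± 0.20 (SE, 2 against 2 arrays, limma adjusted p = 0.654). For UGT78D1 the difference was 0.23 ± 0.22 and for AT5G44630 0.36 ± 0.45. CYP71B26 and UGT73C1 had differences of -0.0063 and 0.0090. In limma, 0 of 24697 genes and probes measured on all arrays passed the threshold for this difference, and 1725 had an unadjusted p under 0.05. The smallest limma adjusted p of any of them was 0.633, close to that of BCAT4. With so few arrays per arrangement, this test does not decide whether BCAT4 had a channel effect, and its absence is not shown.

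Of the 25 genes matched on a list for aliphatic glucosinolates, 3 had a probe annotated to them alone. BCAT4 was the 1 of these past the threshold, where 18.5% of all genes and probes were called in either direction. GSTU20, a glutathione transferase assigned to formation of the glucosinolate core, had log2 ratios of 0.52, 1.42, 0.37 and 0.11 (mean 0.60 ± 0.57, SD, limma adjusted p = 0.117). It was above 0 on all arrays without passing the threshold. AOP3, a dioxygenase that modifies the side chain, was at 0.08 ± 0.54 (SD), and with arrays centred on their medians its mean was below 0, at -0.02. The median of the 3 was 0.60, against 0.11 over all genes and probes. Without BCAT4, which was picked with its value known, 0 of the other 2 were past the threshold and their median was 0.34. UGT74B1, which glucosylates the thiohydroximate precursor of glucosinolates, was the 1 measured gene of 24 on the list for indole glucosinolates and glucosinolate breakdown. It had values of 0.33, 0.76, -0.59 and 0.47, and was not past the threshold (limma adjusted p = 0.478).

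CYP71B26 (AT3G26290) belongs to the CYP71 clan of plant P450 enzymes. Its log2 ratios were 1.34, 1.61, 1.08 and 0.80 on arrays 1 to 4, highest on array 2 and lowest on array 4. The mean was 1.21 ± 0.35 (SD, n = 4 arrays), a 2.31-fold higher level. Without any 1 array the mean stayed between 1.07 and 1.34 and past the threshold.

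UGT73C1 (AT2G36750) encodes a glycosyltransferase that can glucosylate cytokinins. Its log2 ratios were 1.33, 1.57, 1.07 and 0.85, which again ran from highest on array 2 to lowest on array 4. The mean was 1.20 ± 0.31 (SD, n = 4 arrays), a 2.30-fold higher level. Leaving out any 1 array moved the mean between 1.08 and 1.32, with the gene past the threshold each time.

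CYP71B26 and UGT73C1 thus had nearly the same value on each array. Their largest difference on an array was 0.048, and the root mean square difference over the 4 arrays was 0.032. Of 5139 other named genes measured on all 4 arrays, 0 were closer to CYP71B26 than UGT73C1 was, and 0 were closer to UGT73C1 than CYP71B26 was. The next closest gene to both was AT2G38600, at root mean square differences of 0.081 from CYP71B26 and 0.084 from UGT73C1. AT1G44830 followed at 0.12 and 0.095, and AT5G62730 at 0.17 and 0.19. The median distance of those 5139 genes was 1.13 from UGT73C1 and 0.40 from UGT78D1, whose mean was nearer to that of most genes. CYP71B26 and UGT73C1 were both picked with their values known. That median is therefore no measure of a pattern over arrays shared by them. These distances cover 4 arrays that share the same pair of genotypes.

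BCAT4 was at a root mean square difference of 0.57 from UGT73C1, with a difference of -0.16 between their means (BCAT4 minus UGT73C1). The named genes nearest to BCAT4 were AT5G44570, AT4G36770 and AT3G59270, at 0.21 to 0.23. All of these had their higher values on arrays 2 and 4, as BCAT4 did. AT4G36770 is listed together with UGT72E1 on another probe, which was at 0.40 ± 0.16 (SD).

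UGT78D1 (AT1G30530) encodes the enzyme that adds rhamnose to the 3 position of flavonols. Its log2 ratios were 0.22, 0.64, 0.19 and 0.23 on arrays 1 to 4. Array 2 stood above the other arrays, which lay within 0.19 to 0.23. The mean was 0.32 ± 0.21 (SD, n = 4 arrays), a 1.25-fold higher level, and 0.21 without array 2. It was not past the threshold over all arrays or without any 1 of them. Many genes had a like pattern: 1025 of 5139 lay within a root mean square difference of 0.25 from it, and the nearest were AT3G44780, AT4G15730 and AT4G38890, at 0.037 to 0.052.

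A probe listing UGT78D1 together with UGT78D2, the flavonoid 3-O-glucosyltransferase, and UGT78D3, a flavonol arabinosyltransferase, read differently. Its log2 ratios were -0.32, -0.04, -0.96 and -0.14, below 0 on all 4 arrays, with a mean of -0.36 ± 0.41 (SD). Another probe, listing UGT78D2, AT5G17040 and UGT78D3, had 0.05, 0.72, -0.53 and -0.39, with a mean of -0.04. Neither was past the threshold. Which of the listed transcripts each probe detected cannot be told apart.

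Apart from UGT78D1, 2 genes of the 40 matched on a flavonoid and phenylpropanoid list had a probe of their own. UF3GT, also called UGT79B1, adds xylose to anthocyanins, and it had log2 ratios of -0.57, -2.86, -4.40 and -1.48 (mean -2.33 ± 1.67, SD, limma adjusted p = 0.0544). UGT84A1, which glucosylates hydroxycinnamic acids, had -2.50, -2.66, -5.04 and -0.29 (mean -2.62 ± 1.94, SD, limma adjusted p = 0.0575). Both were below 0 on every array, spread widely, and missed the threshold. UGT84A1 was past it without array 4, at -3.40, and with array weights, at -2.75, and UF3GT was past it in the fit of genes measured on all 4 arrays. Array 3 held the lowest value of both, and without it the means were -1.82 for UGT84A1 and -1.64 for UF3GT, not past the threshold. A probe listing UF3GT and AT5G54010 varied less, at -2.82, -2.63, -3.33 and -2.12, and fell by 2.72 (limma adjusted p = 0.0011). A probe listing BAN, an anthocyanidin reductase, together with AT1G30260 fell by 1.17 (limma adjusted p = 0.0223). It no longer passed when array 1, 2 or 3 was left out, at -1.13, -1.04 and -1.08.

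AT5G44630 encodes a sesquiterpene synthase of flowers. Its log2 ratios were -0.86, -0.84, -0.38 and 0.33 on arrays 1 to 4, and array 4 alone was above 0. The mean was -0.44 ± 0.55 (SD, n = 4 arrays) and not past the threshold, but without array 4 it was -0.69 and past it. The named genes with the nearest values were AT4G16460, BHLH101 and AT2G03000, at root mean square differences of 0.15 to 0.17, and each was lower on arrays 1 and 2 than on arrays 3 and 4. SWEET9, the 1 measured gene of 10 matched on a nectary list, was at -4.79 ± 0.64 (SD), and its part in the value of AT5G44630 was not tested.

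AT5G44630 was the 1 measured gene of 31 matched on the terpene list. Its direct neighbour in the reference gene order is CYP706A3, a P450 known to oxidise floral terpenes, which was not analysed here. A probe shared by a pair of terpene synthase genes that both carry the symbol TPS-CIN, for cineole synthase, had -0.82, 0.27, -0.34 and 0.43. Its mean was -0.11 ± 0.58 (SD), on both sides of 0 and not past the threshold.

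Signal near background is a limit here, and not for small ratios only. For empty spots, which carry no probe, the median log2 ratio was 0.76 on array 1, 0.56 on array 2, -0.27 on array 3 and 0.84 on array 4. Their 95th percentile was 2.82, 3.02, 0.87 and 4.94 on arrays 1 to 4. The mean of 15.6% of the 179 empty spots measured on at least 3 arrays lay above that of UGT73C1, as for CYP71B26. The share was 20.7% for BCAT4 and 67.0% for UGT78D1. On array 4, CYP71B26 at 0.80 lay below the median of the empty spots, and UGT73C1 at 0.85 was level with it. BCAT4 lay below that median on array 1, at 0.65, and UGT78D1 on arrays 1 and 4. CYP71B26, UGT73C1 and BCAT4 were above it on arrays 2 and 3. The deposited ratios carry no intensities, so the distance of these spots from background was not tested.

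**Figure D2:**
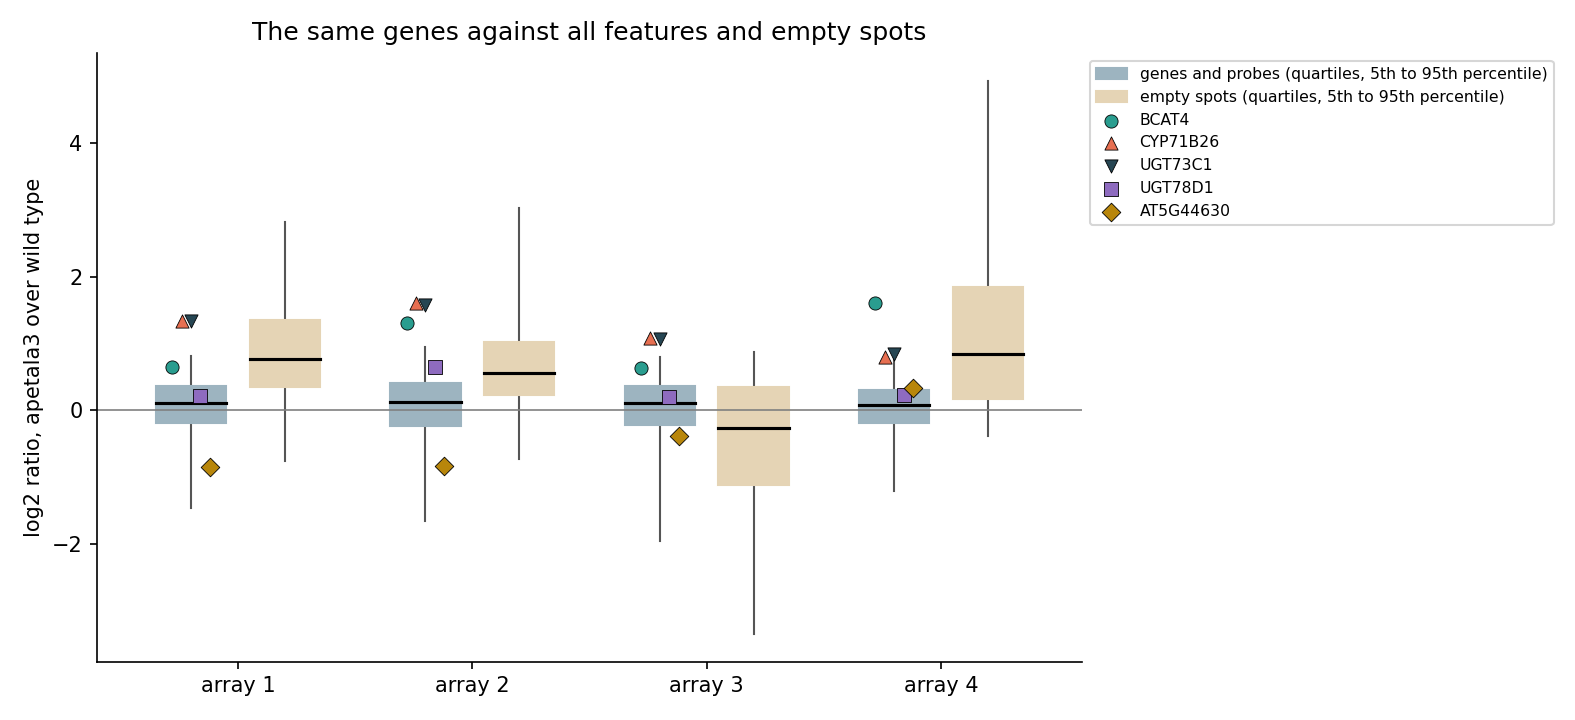
Log2 ratio of apetala3 over wild type (vertical axis) on each array, with boxes for the quartiles, black lines for the median and thin lines for the 5th to 95th percentile of all tested genes and probes (blue) and of empty spots (sand), and a coloured symbol for each of the 5 genes. CYP71B26 and UGT73C1 lie above the 95th percentile of genes and probes on arrays 1 to 3. On array 4 they are at 0.801 and 0.849, against a 95th percentile of 0.796. UGT78D1 lies near the median of genes and probes on arrays 1, 3 and 4.

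Against all 25588 genes and probes, the means of CYP71B26, UGT73C1 and BCAT4 ranked high, with 235, 239 and 354 genes and probes above them. UGT78D1 had 6077 above it, and AT5G44630 had 22065. Called increases of at least 2-fold made up 0.965% of the genes and probes, and 3 of the 5 genes were among them. The 5 genes were picked with results of this comparison known, so nothing is read from these ranks or this share. With each array centred on its median, each mean moved by less than the SD over arrays. The centred means were 0.94 for BCAT4, 1.11 for CYP71B26, 1.10 for UGT73C1, 0.22 for UGT78D1 and -0.54 for AT5G44630.

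The UGT family gave the widest view around UGT73C1 and UGT78D1. Of 64 genes with a UGT name, 20 had a probe of their own, with a median log2 ratio of 0.22 against 0.11 over all genes and probes. With UGT73C1 counted, 2 were higher, 1 was lower and 17 were not past the threshold, where 18.5% of all genes and probes were called in either direction. UGT73C1 and UGT78D1 were picked with their values known. Without them, 1 of 18 was higher and 1 lower, and the median was 0.17. UGT85A5 rose by 0.42 ± 0.09 (SD, limma adjusted p = 0.0344), and UGT74D1, which glucosylates auxins, fell by 0.47 ± 0.16 (SD, limma adjusted p = 0.0335). Their calls were lost without array 1, 2 or 3, at 0.41, 0.40 and 0.41 for UGT85A5 and -0.41, -0.46 and -0.54 for UGT74D1. For UGT74D1 the call was also lost without array 4, at -0.48, and both were lost when a channel term was fitted. Centring the arrays on their medians put UGT85A5 at 0.32 and ended its call, which left UGT73C1 as the 1 higher gene.

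The other UGT genes did not pass the threshold, and UGT84A1 and UF3GT, described above, had the lowest means among them. UGT76C2, a cytokinin glucosyltransferase, had log2 ratios of 0.79, 0.26, 0.46 and -0.57, with a mean of 0.24. UGT71C5, which glucosylates abscisic acid, had -0.13, -0.08, -0.22 and -0.39, with a mean of -0.21. UGT76B1, which glucosylates salicylic and isoleucic acid, had -0.49, -0.54, 0.09 and -1.88, with a mean of -0.70. UGT85A7 was at 3.27 on array 4 against -0.45, -0.02 and -0.89 on arrays 1 to 3. UGT88A1, UGT85A4, GT72B1, UGT73B1, UGT73C7, UGT76D1, UGT71B1 and UGT73D1 had means between 0.02 and 0.33.

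**Figure D3:**
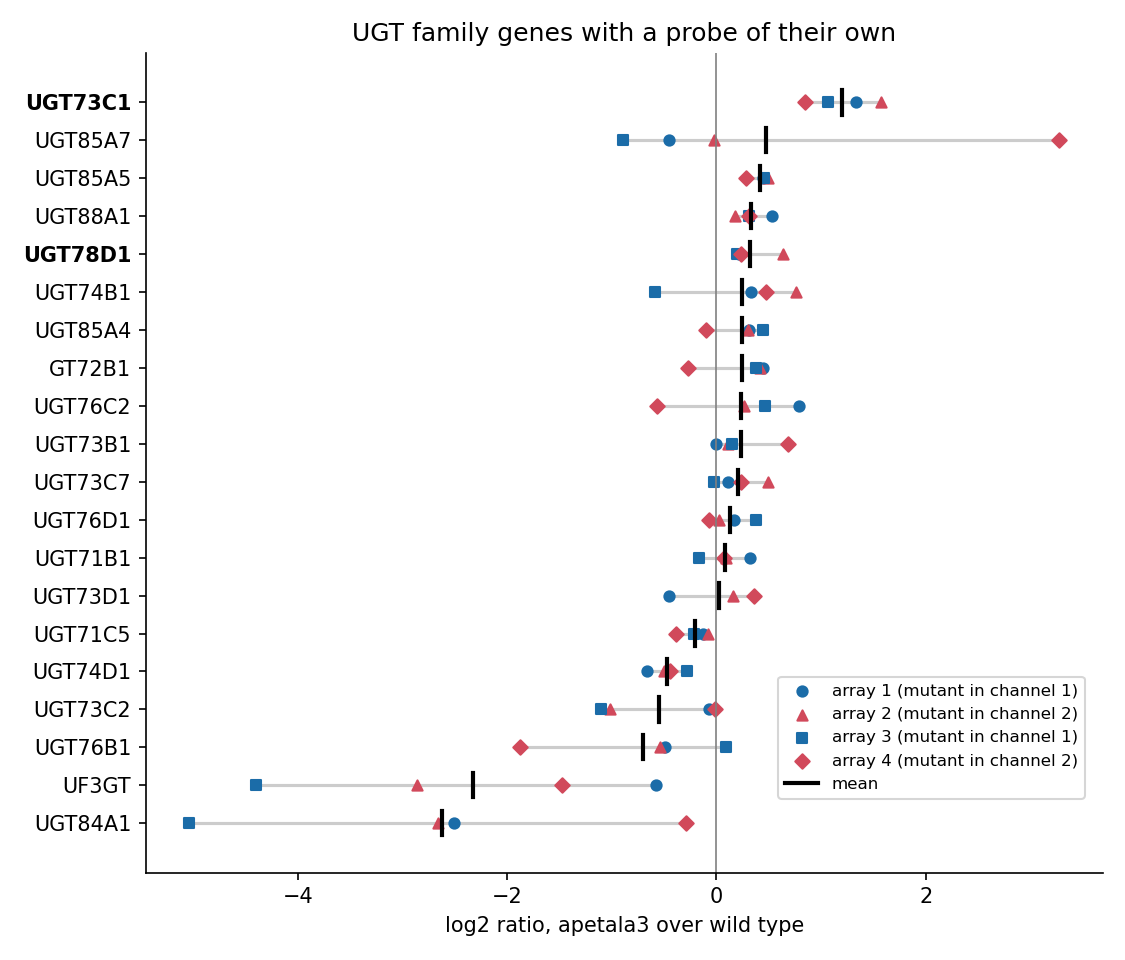
Log2 ratio of apetala3 over wild type (horizontal axis) for the 20 UGT genes with a probe of their own, ordered by mean, with a symbol for each array, a black bar for the mean and a grey line for the range. UGT73C1 and UGT78D1 are in bold. UGT73C1 has the highest mean of the 20, at 1.20, and UF3GT and UGT84A1 have the lowest, with ranges that span several log2 units.

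UGT73C1 lies at the start of a run of related genes in the reference order, with UGT73C2, AT2G36770, AT2G36780, UGT73C6 and DOGT1 following it. UGT73C2 had log2 ratios of -0.07, -1.01, -1.10 and -0.01, below 0 on every array where UGT73C1 was above it, with a mean of -0.55 ± 0.59 (SD, limma adjusted p = 0.153). SWC2, the neighbour on the other side, was at 0.38, 0.33, 0.62 and 0.13 on arrays 1 to 4. UGT73C7 was at 0.21 ± 0.22 (SD). Both probes that list AT2G36770 and AT2G36780 with further genes had means below 0, at -0.12 and -0.34, and were not past the threshold. The second of them was past it with arrays centred, at -0.44, or with array weights, at -0.39.

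Elsewhere in the UGT73 family, a probe listing UGT73B4 and UGT73B5 rose by 0.998 ± 0.28 (SD, limma adjusted p = 0.0074). Its values of 1.31, 1.11, 0.91 and 0.66 were again lowest on array 4. Another probe listing the same genes had 0.50, 2.12 and -1.61 on arrays 1 to 3 and was not past the threshold. UGT73B2 and UGT73B3, listed together on a probe, fell by 1.44 ± 0.44 (SD, limma adjusted p = 0.0064).

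Of 17 tested probes that list several genes, all of them with a UGT name, 2 were higher, 2 lower and 13 not past the threshold, with a median of 0.05. This share is close to the 18.5% called over all genes and probes. The second higher probe, listing UGT71C3, UGT71C1 and UGT71C2, was at 0.54 ± 0.28 (SD, limma adjusted p = 0.0462), and it no longer passed when any array was left out, at 0.59, 0.64, 0.45 and 0.47, nor with arrays centred, at 0.43, with limit values kept or with a channel term. Counting probes that list at least 1 UGT gene beside any other gene, 37 were tested, of which 4 were higher, 4 lower and 29 not past the threshold. A probe listing UGT89B1, AT1G51210 and AT5G03490 had -1.29, -2.45, -1.88 and -1.34, and fell by 1.74 ± 0.54 (SD, limma adjusted p = 0.0059). A probe listing AT1G01390, UGT72B3, GT72B1 and UGT88A1 had 1.21, 0.75, 1.69 and 1.17, and rose by 1.21 ± 0.38 (SD, limma adjusted p = 0.0081). Both were also past the threshold without any 1 array, but not with a variance estimated for each probe alone. The 2 probes listing AT3G46666, UGT76E11 and UGT76E12 went opposite ways, at -0.92 ± 0.44 (SD, limma adjusted p = 0.0262) and 0.45 ± 0.19 (SD, limma adjusted p = 0.0468). The first no longer passed without array 2 or 3, at -0.72 and -0.94. The second no longer passed without array 1, 2 or 3, at 0.39, 0.43 and 0.43, nor with arrays centred, at 0.35, with limit values kept or with a channel term.

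Of the 252 P450 genes, 5 had a probe annotated to them alone. CYP71B26 was the 1 past the threshold, a share near the 18.5% over all genes and probes. Without CYP71B26, which was picked with its value known, it was 0 of 4. CYP71B29 had log2 ratios of 1.10, 0.22, 1.09 and -0.58, with a mean of 0.46 ± 0.81 (SD). CYP71B6, an enzyme acting on indole-3-acetonitrile, was above 0 on all 4 arrays, at a mean of 0.28 ± 0.22 (SD). The pseudogene CYP71B30P was at 0.43 ± 0.65 (SD) and CYP718 at 0.46 ± 0.45 (SD). The median of the 5 was 0.46.

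CYP71B26 stands in a cluster of CYP71B genes, with CYP71B25 and CYP71B4 before it and CYP71B34 to CYP71B37 after it in the reference order. A probe listing CYP71B37, CYP71B36 and CYP71B6 had log2 ratios of 0.83, 1.44, 1.16 and 0.06 (mean 0.87 ± 0.59, SD). It missed the threshold over all arrays and was past it without array 4, at 1.14, with array weights, at 0.92, and in the fit of genes measured on all 4 arrays. The 2 probes listing CYP71B22 and CYP71B21 had means of 0.49 and 0.24, with array 4 at -0.95 and -0.93 and the other arrays above 0. Both were past the threshold without array 4, at 0.97 and 0.63. The 2 probes listing CYP71B5 and CYP71B38 went the other way. The first fell by 1.65 ± 0.49 (SD, limma adjusted p = 0.0052). The second was 2.01-fold lower (log2 SD 0.43, limma adjusted p = 0.0194). It no longer passed when array 1, 2 or 3 was left out, at -0.98, -0.90 and -0.92.

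**Figure D4:**
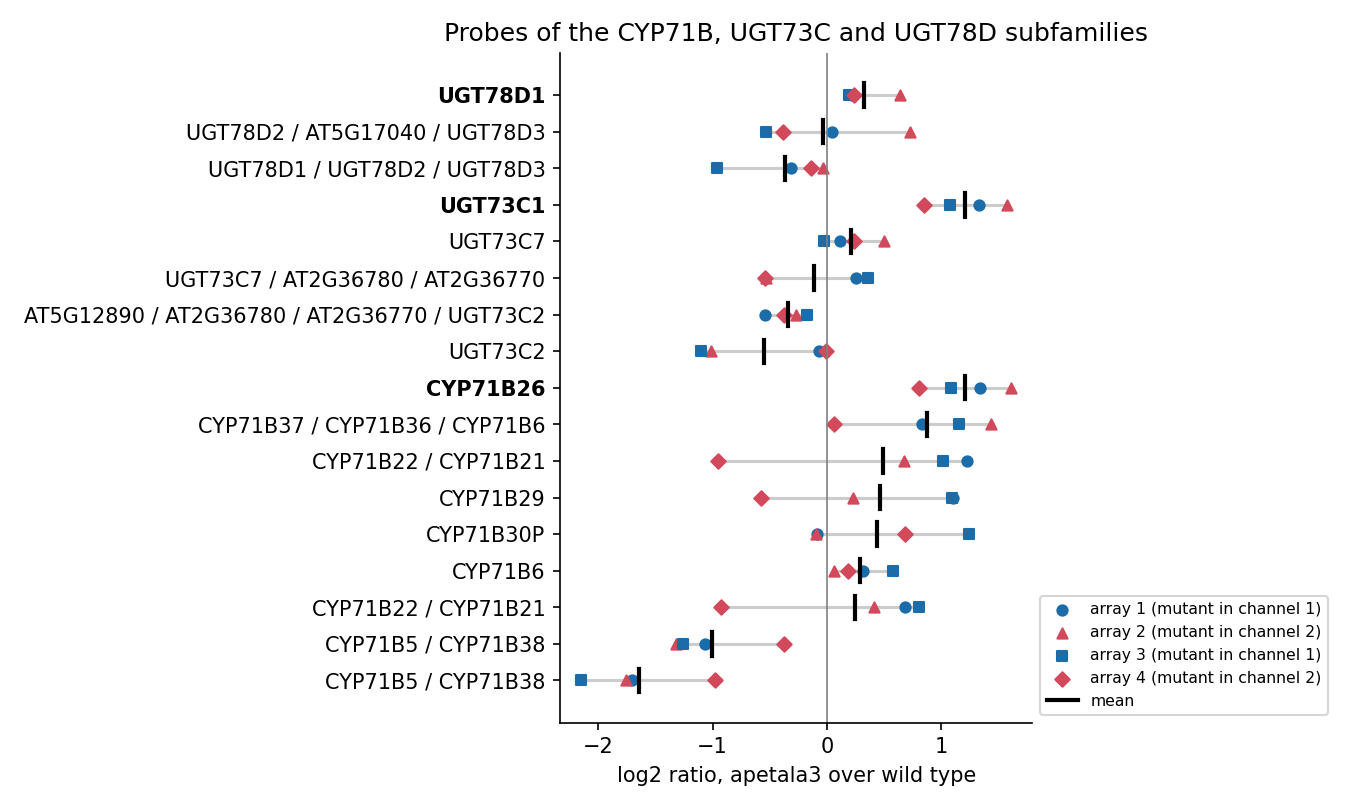
Log2 ratio of apetala3 over wild type (horizontal axis) for probes of the CYP71B, UGT73C and UGT78D subfamilies, with a symbol for each array, a black bar for the mean and a grey line for the range. Names joined by a slash are probes listing several genes, and the 3 genes in bold are CYP71B26, UGT73C1 and UGT78D1. Among the probes shown, CYP71B26 and UGT73C1 have the highest mean of their subfamily, and the probe pair of CYP71B5 and CYP71B38 the lowest. Both genes were picked with their values known. Of 37 CYP71B genes, 4 had a probe annotated to them alone and 27 were named by no annotated probe.

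Array 4 recurred as the array apart. Over the 4664 genes and probes called and measured on all arrays, its slope on the mean of the other arrays was 0.74, against 1.02 to 1.14 for arrays 1 to 3. The value on array 4 minus the mean of arrays 1 to 3 was -0.54 for CYP71B26 and -0.47 for UGT73C1. The same difference was 0.74 for BCAT4, 1.02 for AT5G44630 and -0.12 for UGT78D1. For UGT78D1 array 2 stood apart instead, and BCAT4 was high on array 2 as well as on array 4. The labels give no reason for the lower slope of array 4, and its part in these values was not tested.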

How the data were processed

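Each array has a column of log2 ratios between its channels, deposited after the authors' own processing and normalization, which the labels credit to an earlier publication. How background was corrected, how ratios were centred and which channel was the numerator was not stated. The deposited columns had medians of -0.12 (array 1), 0.14 (array 2), -0.08 (array 3) and 0.09 (array 4). The values end at the log2 of 100 (6.64), which gave the scale, and those within 1e-05 of that limit were taken as not measured.

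Of 26933 spots, 26474 were gene probes. The platform annotation gave 5784 of them 1 gene, 7497 several and 13193 none, and 5756 of the first were matched by gene ID to the TAIR10.1 gene table. Listed genes may also lie on probes given no gene, so counts of genes with or without a probe cover annotated probes only. Probes of a gene were averaged on each array, and several-gene probes were kept apart. A feature needed a value on at least 3 arrays. Its mean was set against 0 by limma 3.58.1 under R 4.3.3, as an intercept fitted by lmFit and moderated by eBayes. P-values were adjusted after Benjamini and Hochberg over all features, and the threshold was 0.05. Tables were made with Python 3.11.15 and pandas 2.3.3. Simulated data with the spread of 24697 of these features gave recovery of 52.3% of log2 changes of 1 and 84.1% of changes of 2, with 4.12% false calls. Each of 20 runs changed 200 features, with normal errors independent between arrays and features. In the data 18.5% were called, so the simulated shares need not hold there. No sequence was used here.

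The 5 genes and all lists were chosen with earlier results of these data known. The genes named were these 5, the measured genes of 4 pathway lists and of the UGT and P450 families, the several-gene probes with a listed gene that were past the threshold or of the same subfamilies, the 3 named genes nearest to each of the 5, and measured tissue genes. The reference symbol TPS11 belongs to another gene, so AT5G44630 was matched by locus, and cyclophilin genes named CYP were left out. On the carpel and ovule list, 2 of 14 genes were measured, CES at 1.85 and INO at 0.20, and on the petal list 0 of 8. Alternatives were leaving out an array, keeping limit values, centring, array weights, a channel effect, all 4 arrays measured, no moderation of the variance, and a 2-fold minimum. The number of arrays limits the precision.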

Additional observations from a re-analysis of the deposited data

Results flagged for a closer look

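On 2 of 35 named genes measured on all 4 arrays, 1 array lay far from the other arrays by Dixon's criterion, where chance gives about 1.75. UGT78D1 had 0.64 on array 2 against 0.19 to 0.23 on the others. GT72B1, a UGT gene, had -0.27 on array 4 against 0.38 to 0.44 on the others.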

How the results depend on the processing

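With arrays centred or weighted, the means of the 5 genes moved by less than their SD over arrays. Leaving out 1 of 4 arrays cannot move a mean by its SD, so those shifts are no check of it. Keeping limit values or fitting a channel effect left the 5 means unchanged. Of the 5, 3 were past the threshold, with the same count under centring, array weights, a channel effect, limit values kept, all 4 arrays measured and a 2-fold minimum. The count was 2 to 4 without 1 array: 2 without array 1 or 2, where BCAT4 was lost, and 4 without array 4, where AT5G44630 was added. It was 0 of 5 with an unmoderated t statistic, where 3 had an unadjusted p under 0.05 (limma called 3). Over all genes and probes, 4737 were called (2158 higher, 2579 lower), a share of 18.5% to set beside the counts below. This became 1818 to 5028 without 1 array, 1265 with the unmoderated statistic and 1904 at least 2-fold. Centring gave 1065 higher and 2905 lower. Of the 8 pathway genes tested, 1 was called, 0 to 3 without 1 array, and 2 with array weights or with all 4 arrays measured. With the unmoderated statistic 0 of the 8 were called, with 1 at an unadjusted p under 0.05. Of 20 UGT genes, 3 were called, 1 to 3 without 1 array, 5 with array weights, 2 centred, 1 with a channel effect, 1 at least 2-fold and 0 unmoderated (4 unadjusted). Of 5 P450 genes, 1 was called, 1 without any 1 array, and 0 unmoderated (1 unadjusted). Among the several-gene probes past the threshold, only that listing UF3GT and AT5G54010 stayed past it with the unmoderated statistic. Values near 0 changed sign for AOP3 (-0.18 to 0.24 without 1 array, -0.017 centred), UGT71B1 (-0.00066 to 0.16 without 1 array, -0.021 centred) and UGT73D1 (-0.079 centred, -0.15 weighted, -0.096 with a channel effect). The same held for probes listing TPS-CIN (-0.30 to 0.12 without 1 array), UGT73C7, AT2G36780 and AT2G36770 (-0.27 to 0.025), and UGT78D2, AT5G17040 and UGT78D3 (-0.29 to 0.13, and 0.0083 weighted). UGT85A7, with a mean of 0.48, also changed sign (-0.45 to 0.93 without 1 array, the lowest without array 4). The cause of these shifts was not tested. Each ratio is the difference of both genotypes on its array, so the limma fit is itself paired by array. Beyond that, no paired analysis was possible because there is 1 group of arrays. Each of the 5 genes has 1 probe of its own, so probes taken singly give the same means.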
